A study of Homo sapiens with 18 samples.

Results

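Expression of 10 Krüppel-like factor genes (KLF2, KLF3, KLF4, KLF5, KLF6, KLF7, KLF9, KLF10, KLF11 and KLF13) was followed in 3 established cell lines from human hepatocellular carcinoma after siRNA against ATAD2, which encodes a nuclear ATPase that carries a bromodomain. The array carried 32 probe sets annotated to exactly 1 of these genes, out of 41097 probe sets with 1 gene and 54675 in all. The family was chosen by the KLF4 signal, which was higher after knockdown in 2 of the 3 lines. KLF4's own changes are therefore given as a description without a test. The other 9 genes, with 30 probe sets, were tested. Hep3B, SNU449 and PLC (PLC/PRF/5) cells were grown in RPMI and transfected by lipofection with either ATAD2 siRNA or a non-targeting control siRNA, with 3 arrays labelled as biological replicates for each siRNA in each line, 18 in all. The labels call the treated samples knockouts, but the study's design and treatment text describe siRNA. The time of harvest is not given in the sources used here. Each label stands for 1 cell line, and no group was left untransfected.

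Krüppel-like factors are transcription factors that bind GC-rich and CACCC-type DNA elements through zinc fingers at their carboxyl end. Their remaining protein sequence differs between branches of the family, and with it the partners they recruit. KLF2, KLF4, KLF5, KLF6 and KLF7 are usually grouped as factors able to activate transcription, KLF3 represses through the corepressor CtBP, and KLF9, KLF10, KLF11 and KLF13 recruit the SIN3 corepressor complex. Several of the genes are switched on quickly by growth factors, hormones or stress, and KLF6 and KLF4 have been studied in liver cancer as regulators of growth and differentiation.

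ATAD2 itself was lower on every knockdown array, from a mean log2 signal of 8.96 to 5.17 in Hep3B, 9.22 to 6.83 in SNU449 and 9.71 to 7.09 in PLC (n = 3 each). The labels of 2 lines ran against known features of those lines. RB1, which Hep3B cells are known to lack, had a mean control signal of 9.47 under the Hep3B label and 4.44 under the SNU449 label, and albumin (ALB) had 3.03 and 13.8. The albumin signal in PLC was 10.6. Alpha-fetoprotein (AFP) had 5.15 under the Hep3B label and 9.29 under the SNU449 label, and the mesenchymal factor ZEB1 9.0 and 4.08. Not all hepatocyte markers ran this way, since FGB had 11.5 under the Hep3B label and 6.88 under the SNU449 label. The other measured ones, APOA1, APOB, TTR and SERPINA1, were higher under the SNU449 label, as ALB and AFP were. The names Hep3B and SNU449 below therefore stand for the arrays so labelled, and each knockdown comparison lies within a label. Control probe sets at both ends of the beta-actin and GAPDH transcripts measure RNA integrity, and their 5′ minus 3′ log2 signal was between -0.59 and -0.44 on the PLC control arrays. It was -1.15 and -1.09 on PLC ATAD2 siRNA replicates 1 and 3, and -0.45 on replicate 2. In Hep3B it was -0.42 on ATAD2 siRNA replicate 2 and between -0.79 and -0.65 on the other 5 arrays, and in SNU449 it lay between -0.41 and -0.30. The median standard deviation of a probe set within a group was 0.136 log2 units on the PLC ATAD2 siRNA arrays and 0.0715 to 0.0978 in the other groups. Leukocyte and endothelial marker lists had mean signals of 4.60 to 5.37 and 4.80 to 5.25 over all arrays.

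All values below are log2 signals after quantile normalization over the 18 arrays. A level is compared only within a probe set, between lines or between siRNAs, since probe sets differ in brightness. A probe set whose name ends in _s_at or _x_at may also bind other transcripts. Changes are ATAD2 siRNA minus control with their standard error from limma, and a change was called at an adjusted p under 0.05 after Benjamini-Hochberg adjustment over all 41097 probe sets.

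KLF4, one of the factors able to reprogram cells to pluripotency and a regulator of epithelial differentiation, was higher after knockdown under the Hep3B and SNU449 labels. Its brighter probe set (221841_s_at) read 7.04, 6.93 and 6.93 in the Hep3B controls against 8.09, 8.0 and 8.18 after knockdown. The groups did not overlap, and the change was 1.12 ± 0.08, or 2.18-fold. In SNU449 the controls read 6.12, 6.12 and 5.83 against 6.50, 6.46 and 6.64 after knockdown, a change of 0.51 ± 0.08 or 1.42-fold, again without overlap. In PLC, where KLF4 was already high, the values were 9.99, 10.12 and 10.09 against 10.08, 10.17 and 10.11, with overlapping groups and a change of 0.05 ± 0.08. These changes chose the family and therefore support nothing further. The other KLF4 probe set (220266_s_at) changed by 0.33 ± 0.10 in Hep3B, 0.17 ± 0.10 in SNU449 and -0.19 ± 0.10 in PLC. In PLC this probe set gave 7.0 and 6.97 on replicates 1 and 3, which had the low 5′ signal, and 7.37 on replicate 2, against 7.25 to 7.37 on the control arrays.

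**Figure D1:**
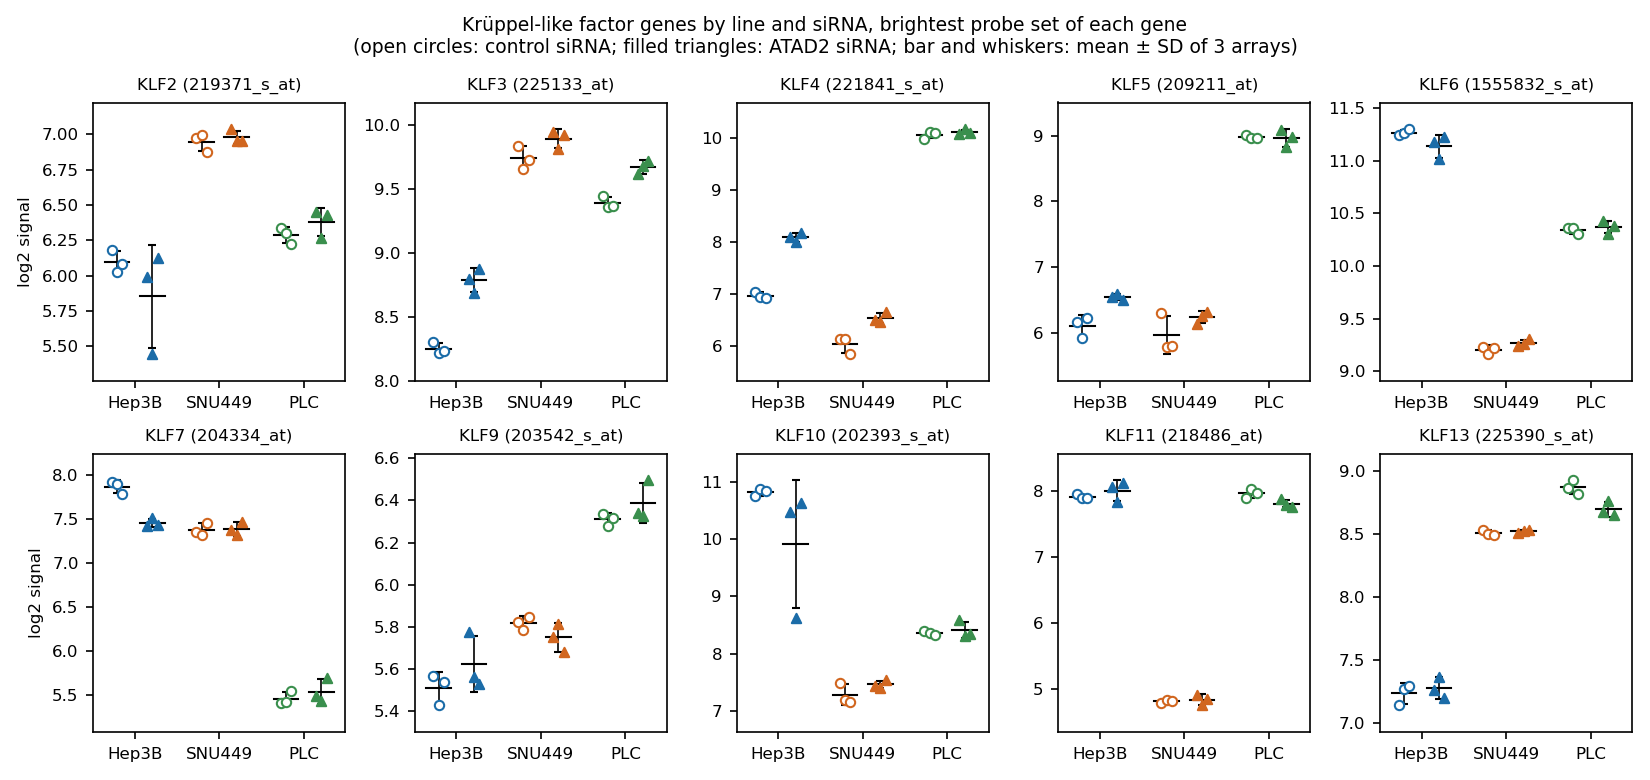
Log2 signal of the brightest probe set of each of the 10 genes, 1 panel per gene, by line label and siRNA; open circles are control arrays, filled triangles ATAD2 siRNA arrays, and bars with whiskers the mean ± SD of 3 arrays. KLF4 rises under the Hep3B and SNU449 labels and lies near 10 in PLC with either siRNA, and KLF10 has 1 low Hep3B knockdown array at 8.63; the vertical axes differ between panels and do not start at 0.

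Of the 30 probe sets of the other genes, 5 passed in Hep3B (limma), or 16.7%, against 11.8% of all probe sets tested. They were 4 that rose, against 6.73% of all probe sets, and 1 that fell, against 5.08%. They belonged to 4 of the 9 genes. In SNU449 0 of 30 passed, with 2 at an unadjusted p under 0.05 in the same limma fit, against 0.0876% of all probe sets called. In PLC 2 passed, against 3.73%, of which 1 rose (1.64% of all) and 1 fell (2.08%). The PLC count was 0 with the 5′ to 3′ difference as a covariate, 5 without ATAD2 siRNA replicate 2, and 1 (another probe set, KLF13 230094_at) without replicates 1 and 3. Leaving out single arrays gave 0 for 4 arrays, 1 for 7 and 2 for 6. On the deposited values and with median centring it stayed at 2, but with KLF13 225390_s_at in place of KLF3 225133_at. In Hep3B, markers of several cell types moved beside these genes: 2 of 5 epithelial markers (KRT8 by 0.51 and KRT18 by 0.38), 1 of 5 mesenchymal (SPARC by 0.83), 1 of 7 hepatocyte (FGB by 0.39) and 1 of 4 leukocyte markers (CD14 by 0.49) rose, and 1 of 4 endothelial markers fell (PECAM1, by 0.25). The mean epithelial signal there was 5.35 to 5.49 on controls and 5.51 to 5.78 after knockdown. On the PLC knockdown arrays 4 of 7 measured hepatocyte markers and 1 of 5 epithelial markers fell, and the mean hepatocyte signal was 9.38 to 9.50 against 9.82 to 9.85 on the controls. Each label stands for 1 cell line, so these marker lists describe signal and not a mixture of tissue cells. In bulk RNA a change in every cell and a change in some cells cannot be told apart. The part of these shifts in the KLF values was not tested. The share in Hep3B is near that of the array as a whole, and the median change of the 30 probe sets was -0.02 in Hep3B, 0.04 in SNU449 and -0.02 in PLC, against -0.01, -0.00 and 0.00 over all probe sets. Knockdown values lay all above or all below the control values for 13 of the 30 in Hep3B (29.3% of all probe sets), 6 in SNU449 (20.5%) and 5 in PLC (17.8%).

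**Figure D2:**
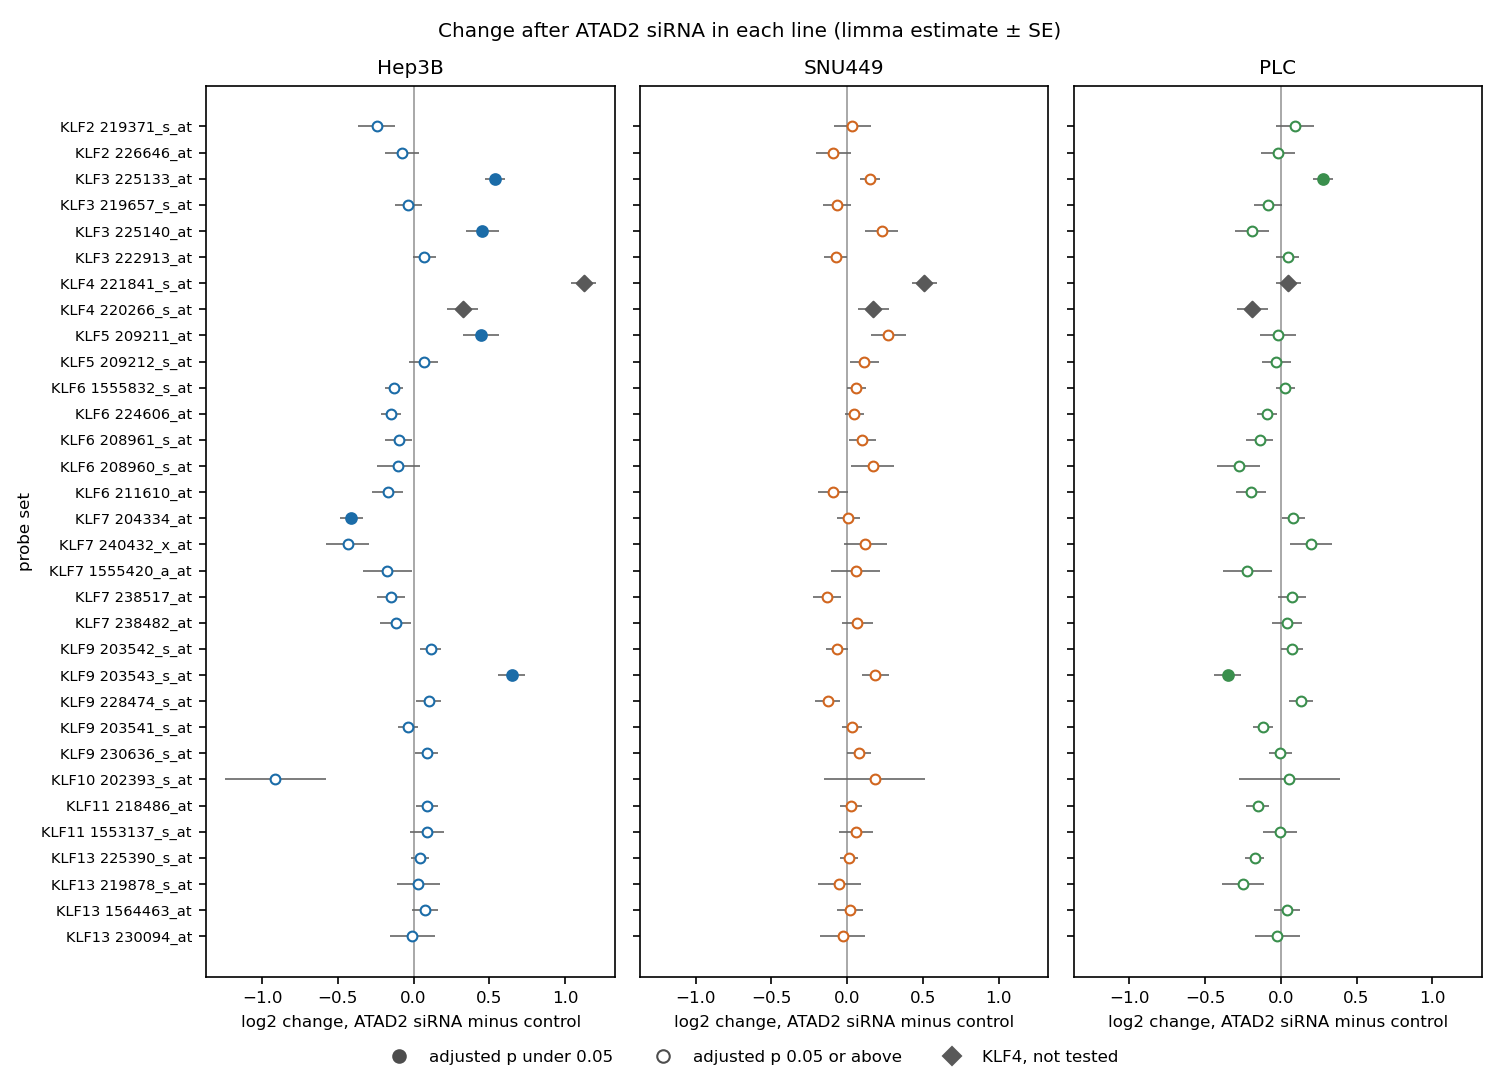
Log2 change after ATAD2 siRNA (limma estimate ± SE, 3 arrays against 3) for each of the 32 probe sets, 1 panel per line label; filled circles passed an adjusted p of 0.05, open circles did not, and grey diamonds are KLF4, which was not tested. Filled circles are 5 in Hep3B, 0 in SNU449 and 2 in PLC.

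Among the activating branch, KLF5, known for its part in the proliferation of intestinal epithelium, rose in Hep3B on 1 of its 2 probe sets. Probe set 209211_at read 6.16, 5.91 and 6.22 in the Hep3B controls against 6.54, 6.59 and 6.50 after knockdown. The knockdown arrays were all higher, by 0.45 ± 0.12 or 1.36-fold (limma, adjusted p = 0.0189). The call was lost without Hep3B control replicate 2 or ATAD2 siRNA replicate 2 and with the replicate block (adjusted p up to 0.111). In SNU449 the same probe set gave 6.30, 5.79 and 5.80 against 6.14, 6.26 and 6.31, a change of 0.27 ± 0.12 with overlapping groups (adjusted p = 0.538). In PLC, where KLF5 was higher than in either other line, it changed by -0.02 ± 0.12. The other probe set, 209212_s_at, changed by 0.07 ± 0.10, 0.11 ± 0.10 and -0.03 ± 0.10 in Hep3B, SNU449 and PLC, and did not pass in any line.

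KLF7, a factor with a known part in the development of neurons, fell in Hep3B. Probe set 204334_at read 7.91, 7.89 and 7.78 in the Hep3B controls against 7.42, 7.51 and 7.42 after knockdown. All knockdown values were lower, and the change was -0.41 ± 0.08, or 1.33-fold (limma, adjusted p = 0.00134). The call was lost when each array was centred on its median (-0.27, adjusted p = 0.0656). Probe set 240432_x_at moved by a like amount, from 7.56, 7.65 and 7.77 to 7.0, 7.22 and 7.46, a change of -0.44 ± 0.14 that missed the threshold (adjusted p = 0.0555) and passed in 10 of 28 alternative settings. All 5 KLF7 probe sets had negative changes in Hep3B, between -0.44 and -0.12. In SNU449 and PLC the 204334_at changes were 0.01 ± 0.08 and 0.08 ± 0.08, and the 5 probe sets lay between -0.14 and 0.12 and between -0.22 and 0.20.

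KLF6, which has been studied as a tumour suppressor in liver cancer, did not pass in any line. In Hep3B its 5 probe sets all had small negative changes, between -0.17 and -0.10. On the 2 brightest, 1555832_s_at and 224606_at, the control arrays gave 11.24 to 11.30 and 11.14 to 11.19 and the knockdown arrays 11.02 to 11.22 and 10.87 to 11.11. The changes of -0.13 ± 0.06 and -0.15 ± 0.06 missed the threshold (limma, adjusted p = 0.216 and 0.172). In PLC, probe set 208960_s_at read 8.20, 8.35 and 8.58 in the controls against 7.90, 8.54 and 7.85 after knockdown, so that only the replicates with the low 5′ signal were below every control. Its change was -0.28 ± 0.14 (adjusted p = 0.286). It was -0.50 without PLC ATAD2 siRNA replicate 2 (adjusted p = 0.00367), and 0.16 with replicates 1 and 3 left out together (adjusted p = 0.638). The part of RNA integrity in this probe set was not tested.

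KLF2, best known as a flow-responsive gene of endothelium, gave no call. Probe set 219371_s_at read 6.18, 6.03 and 6.08 in the Hep3B controls against 5.99, 5.44 and 6.13 after knockdown. The low value belonged to replicate 2, and the change was -0.24 ± 0.12 (limma, adjusted p = 0.261). In SNU449 and PLC it was 0.03 ± 0.12 and 0.09 ± 0.12. The other probe set, 226646_at, changed by -0.08 ± 0.11, -0.09 ± 0.11 and -0.02 ± 0.11 in Hep3B, SNU449 and PLC.

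KLF3, the CtBP-dependent repressor, rose in Hep3B on 2 of its 4 probe sets and in PLC on 1. Probe set 225133_at read 8.30, 8.22 and 8.23 in the Hep3B controls against 8.80, 8.69 and 8.88 after knockdown. The change was 0.54 ± 0.07, or 1.45-fold (limma, adjusted p = 4.51e-05), and the call held in all 29 alternative settings. In PLC the same probe set gave 9.45, 9.36 and 9.37 against 9.61, 9.68 and 9.72, a rise of 0.28 ± 0.07 (adjusted p = 0.0344) without overlap. In SNU449 the values were 9.84, 9.66 and 9.73 against 9.94, 9.81 and 9.93, a change of 0.15 ± 0.07 with overlapping groups (adjusted p = 0.564). The PLC call was lost in 11 of 30 alternative settings, with a change between 0.23 and 0.31 in all of them. Single arrays whose removal ended it were each of the PLC control arrays (adjusted p = 0.0510, 0.0963 and 0.0839 without replicates 1, 2 and 3) and PLC ATAD2 siRNA replicate 3 (0.0843). It was also lost on the deposited values (0.0551), with median centring (0.106), with PLC fitted alone (0.423), with array weights (0.0680), with the replicate block (0.0677), with the 5′ to 3′ covariate (0.148) and without PLC ATAD2 siRNA replicates 1 and 3 (0.101). The PLC ATAD2 siRNA replicates 1, 2 and 3 lay at 0.22, 0.29 and 0.33 against the control mean, and the part of RNA integrity in this rise was not tested beyond these settings.

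The KLF3 probe sets did not act as 1 transcript measure. Probe set 225140_at rose in Hep3B, from 5.70, 5.37 and 5.47 to 5.78, 6.22 and 5.90, by 0.45 ± 0.11 (limma, adjusted p = 0.0117). Without Hep3B control replicate 2 or ATAD2 siRNA replicate 2, or with Hep3B fitted by itself, it did not pass (adjusted p up to 0.0710). In PLC it changed the other way, from 8.21, 8.16 and 8.14 to 7.87, 8.06 and 8.01, a change of -0.19 ± 0.11 without overlap that missed the threshold (adjusted p = 0.364). Against the control mean, PLC ATAD2 siRNA replicates 1, 2 and 3 lay at -0.30, -0.11 and -0.16. Replicates 1 and 3 had the low 5′ signal, and the part of RNA integrity in this change was not tested. The remaining probe sets, 219657_s_at and 222913_at, had changes between -0.08 and 0.07 in the 3 lines and no call.

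KLF9, a gene induced by thyroid hormone and glucocorticoids, moved in opposite directions under the Hep3B and PLC labels on probe set 203543_s_at. It read 5.09, 4.84 and 4.94 in the Hep3B controls against 5.47, 5.56 and 5.79 after knockdown, all higher. The rise was 0.65 ± 0.09, or 1.57-fold (limma, adjusted p = 0.000104), and the call held in all 27 alternative settings. In PLC the controls read 5.94, 5.88 and 6.14 against 5.62, 5.63 and 5.66 after knockdown, all lower, a fall of 0.35 on the log2 scale (SE 0.09, adjusted p = 0.0424). In SNU449 the values were 4.56, 4.52 and 4.54 against 4.66, 4.69 and 4.84, all higher, with a change of 0.19 ± 0.09 that missed the threshold (adjusted p = 0.617). The PLC call was lost in 16 of 28 alternative settings (adjusted p up to 0.424). They included leaving out any 1 of 11 single arrays, among them each PLC control array (0.0510 to 0.133), the 5′ to 3′ covariate (0.147), and PLC ATAD2 siRNA replicates 1 and 3 left out together (0.149). The individual PLC knockdown arrays lay at -0.37, -0.35 and -0.33 against the control mean for replicates 1, 2 and 3, and the part of RNA integrity was not tested beyond these settings.

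The other 4 KLF9 probe sets did not follow. They had changes between -0.04 and 0.11 in Hep3B and between -0.12 and 0.13 in PLC, and none passed. The brightest of them, 203542_s_at, gave 5.57, 5.43 and 5.54 against 5.78, 5.56 and 5.53 in Hep3B. All 5 KLF9 probe sets were dim, at the 20.2 to 58.8 percentile of mean signal among the probe sets tested, and 203543_s_at lay at 47.3. With each gene represented by its brightest probe set, KLF9 therefore has no call.

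KLF10, the TGF-beta inducible early gene, has 1 probe set, which did not pass in any line. In Hep3B the controls read 10.75, 10.88 and 10.84 against 10.48, 8.63 and 10.64 after knockdown. All knockdown values were below all controls, but replicate 2 stood far from the others, at -2.20 against the control mean compared with -0.35 and -0.19. The change was -0.91 ± 0.33 (limma, adjusted p = 0.0942). It was -0.27 without ATAD2 siRNA replicate 2 (adjusted p = 0.128), and passed without replicate 1 (-1.19, 0.0398) or replicate 3 (-1.27, 0.0207), or without the dimmest 50% of probe sets (0.0409). Replicate 2 is also the array with the low KLF2 value and with the smallest 5′ to 3′ difference of the line; the part of that array in the change of KLF10 was not tested beyond leaving it out. In SNU449 KLF10 changed by 0.18 ± 0.33 and in PLC by 0.05 ± 0.33, where the wide standard error carries the spread of the Hep3B arrays.

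KLF11, a relative of KLF10 that is likewise induced by TGF-beta, and KLF13, a repressor with a known part in T cells, gave no call in any line. KLF11 on 218486_at changed by 0.09 ± 0.07 in Hep3B, 0.02 ± 0.07 in SNU449 and -0.15 ± 0.07 in PLC, where the knockdown arrays (7.87, 7.79 and 7.77) were all below the controls (7.89, 8.04 and 7.97; limma, adjusted p = 0.250). KLF13 on 225390_s_at changed by 0.04 ± 0.06 in Hep3B and 0.01 ± 0.06 in SNU449. In PLC it went from 8.86, 8.92 and 8.82 to 8.67, 8.76 and 8.65, a change of -0.17 ± 0.06 without overlap that missed the threshold (adjusted p = 0.119). It passed in 3 of 30 alternative settings: the deposited values, median centring, and without PLC ATAD2 siRNA replicate 2. The lower values, 8.67 and 8.65, belonged to replicates 1 and 3, which had the low 5′ signal. The part of RNA integrity in this change was not tested beyond the alternative settings. In PLC the intervals of these KLF11 and KLF13 changes ran from -0.31 to 0.00 and from -0.30 to -0.04. On KLF13 219878_s_at the PLC change was -0.25 and missed the threshold (limma, adjusted p = 0.341).

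**Figure D3:**
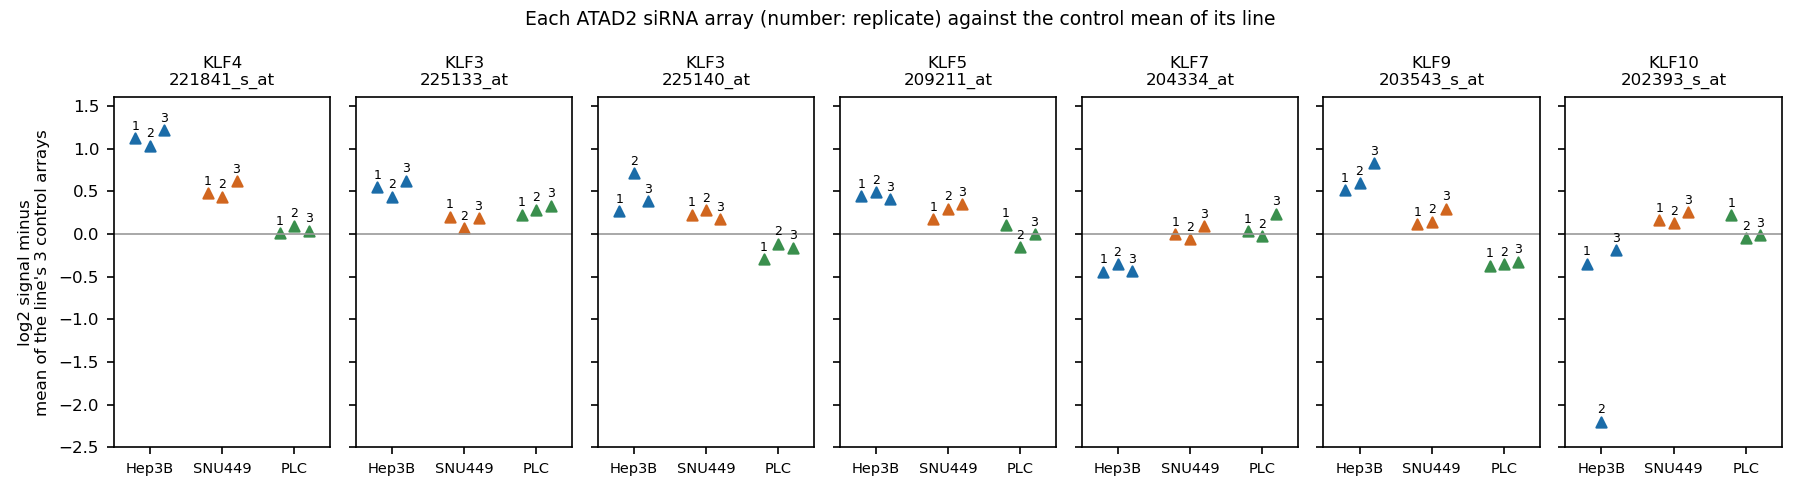
Log2 signal of each ATAD2 siRNA array minus the mean of the 3 control arrays of its line, for 7 probe sets; the number beside a triangle is the replicate. KLF9 lies at 0.51 to 0.83 in Hep3B and at -0.37 to -0.33 in PLC, and KLF10 in Hep3B rests on replicate 2 at -2.20.

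Whether a change differed between lines was tested directly. Of the 30 probe sets, 4 passed the interaction test over the 3 lines (limma), or 13.3%, against 6.47% of all probe sets. For KLF9 203543_s_at (adjusted p = 0.000479) the PLC change was 1.0 ± 0.13 below the Hep3B change (adjusted p = 0.000198). For KLF7 204334_at (adjusted p = 0.0173), the change in SNU449 and in PLC was higher than in Hep3B by 0.42 ± 0.11 and 0.49 ± 0.11 (adjusted p = 0.0363 and 0.0108). KLF3 225133_at passed narrowly (adjusted p = 0.0492), with a SNU449 change 0.38 ± 0.10 below that of Hep3B (adjusted p = 0.0322). KLF3 225140_at also passed (adjusted p = 0.0469), with a PLC change 0.64 ± 0.16 below that of Hep3B (adjusted p = 0.0213). Of the 30, 2 passed between SNU449 and Hep3B (3.75% of all probe sets) and 3 between PLC and Hep3B (7.03%). Between PLC and SNU449 0 passed in limma, with 5 at an unadjusted p under 0.05, against 0.148% of all probe sets. The count of 4 was 1 without Hep3B control replicate 2 and 2 without any 1 of 11 others, 6 without PLC ATAD2 siRNA replicate 2, and 2 with the replicate block.

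The control arrays showed how the lines differ in these genes under control siRNA. The family was chosen by the knockdown change of KLF4 and not by this contrast, but that change uses the same control arrays. Both KLF4 probe sets are among those called below in each comparison with PLC. The members of the family were also listed with earlier results of these data known, so the shares below are a description. A call required an adjusted p under 0.05 together with a difference of 1 log2 unit or more. Of all 32 probe sets, 11 were called between SNU449 and Hep3B (34.4%, against 18.7% of all probe sets), 5 of them with SNU449 higher (8.97% of all) and 6 with SNU449 lower (9.73%). Between PLC and Hep3B 15 were called (46.9%, against 17.8%), 9 with PLC higher (9.23%) and 6 with PLC lower (8.53%). Between SNU449 and PLC 13 were called (40.6%, against 18.8%), 3 with SNU449 higher (8.71%) and 10 with SNU449 lower (10.1%). Probe sets of 1 gene share a transcript, so these counts are not of independent genes. With 1 probe set per gene 5, 6 and 6 of 10 were called, against 19.7%, 18.4% and 19.2% of all genes. The comparisons with PLC depend on the scaling, because in the deposited table the median of all probe sets shifted by -0.69 (PLC minus Hep3B) and 0.83 (SNU449 minus PLC). On those values the splits with PLC were 8 higher and 12 lower against Hep3B, and 10 higher and 7 lower for SNU449 against PLC. With each array centred on its median the shifts were 0.56 and -0.63, and the splits were 12 and 4 against Hep3B and 2 and 17 for SNU449 against PLC. The share of all probe sets called under these scalings is not given here, so these splits are not a result about the family.

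KLF4 and KLF5 were highest in PLC. KLF4 on 221841_s_at had a control signal of 10.07 ± 0.07 (SD, n = 3) in PLC, 6.96 ± 0.06 in Hep3B and 6.02 ± 0.17 in SNU449. The KLF4 differences between lines are a description, since these control arrays also entered the change that chose the family. The PLC level was 8.59 times that of Hep3B and 16.5 times that of SNU449. The knockdown level in Hep3B, 8.09, thus stayed below the PLC control level. KLF5 on 209211_at was 8.98 ± 0.03 in PLC, 6.10 ± 0.16 in Hep3B and 5.96 ± 0.30 in SNU449, and the latter pair did not differ beyond its spread (adjusted p = 0.338). Both probe sets of both genes were called higher in PLC than in either other line, and in all alternative settings tried their differences from PLC kept this direction.

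KLF7 was lowest in PLC and KLF6 and KLF10 were highest in Hep3B. KLF7 on 204334_at had 7.86 ± 0.07 in Hep3B, 7.37 ± 0.07 in SNU449 and 5.45 ± 0.07 in PLC, with both neighbours different (limma, adjusted p = 2.18e-05 and 5.17e-13). KLF6 on 1555832_s_at had 11.27 ± 0.03 in Hep3B, 10.34 ± 0.03 in PLC and 9.21 ± 0.04 in SNU449. The SNU449 level was 4.17-fold below that of Hep3B (adjusted p = 8.47e-15), whereas the order of Hep3B and PLC turned (to 0.47, PLC minus Hep3B) with each array centred on its median, as it did for 3 other KLF6 probe sets. KLF10 had 10.83 ± 0.07 in Hep3B, 8.36 ± 0.04 in PLC and 7.28 ± 0.19 in SNU449, an 11.7-fold range (adjusted p = 5.58e-08 between Hep3B and SNU449).

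KLF11 was low in SNU449, and the brightest probe sets of KLF3 and KLF13 were lowest in Hep3B. KLF11 on 218486_at had 4.82 ± 0.03 in SNU449 against 7.92 ± 0.03 in Hep3B and 7.97 ± 0.07 in PLC, where the latter pair did not differ beyond its spread (limma, adjusted p = 0.593), except that with median centring PLC was higher by 1.20 (adjusted p = 9.68e-12). SNU449 was 8.56-fold below Hep3B (adjusted p = 3.97e-16). KLF3 on 225133_at had 8.25 ± 0.05 in Hep3B, 9.39 ± 0.05 in PLC and 9.74 ± 0.09 in SNU449, but the other 3 KLF3 probe sets placed PLC above SNU449, as did 225133_at with each array centred on its median. On the deposited values 219657_s_at and 222913_at turned, to 0.08 and 0.49 (SNU449 minus PLC). KLF13 on 225390_s_at had 7.24 ± 0.08 in Hep3B, 8.51 ± 0.02 in SNU449 and 8.87 ± 0.05 in PLC. KLF2 on 219371_s_at was highest in SNU449 at 6.95 ± 0.06, against 6.29 ± 0.06 in PLC and 6.10 ± 0.08 in Hep3B, where the latter pair did not differ beyond its spread (adjusted p = 0.184) but PLC was lower by 0.57 on the deposited values, and neither of its probe sets differed by 1 log2 unit between lines. KLF9 was highest in PLC on all 5 probe sets after quantile normalization over all arrays, but on 4 of them PLC lay below both other lines on the deposited values. Probe set 203543_s_at had 5.99 ± 0.14 in PLC against 4.96 ± 0.12 in Hep3B and 4.54 ± 0.02 in SNU449. On the deposited values and with quantile normalization within each line, the difference between PLC and Hep3B on this probe set was 0.03 and 0.04 in place of 1.03, and was not called.

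**Figure D4:**
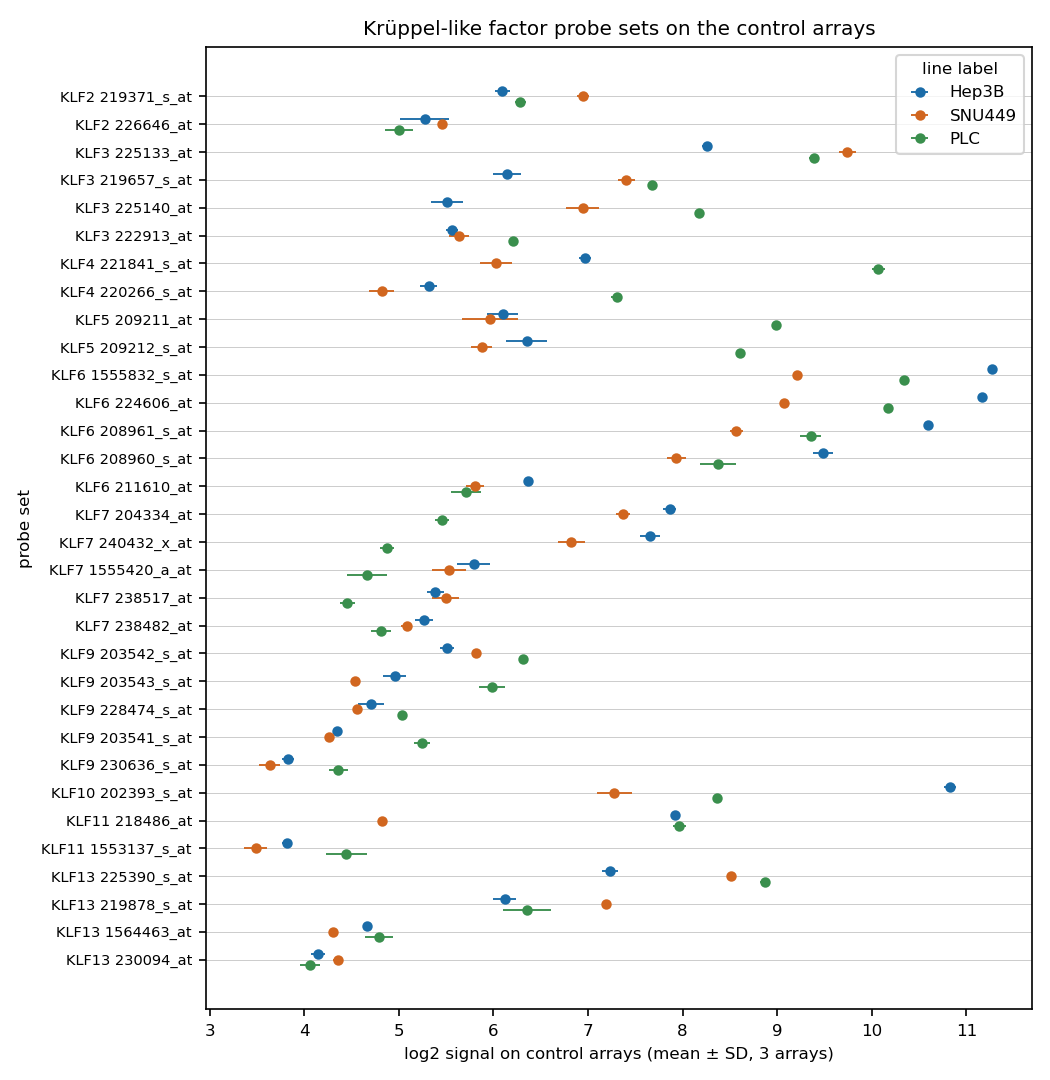
Log2 signal of the 32 probe sets on the control arrays, mean ± SD of 3 arrays for each line label. PLC lies highest for both probe sets of KLF4 and KLF5 and lowest for all 5 of KLF7, Hep3B lies highest for KLF10 and all 5 of KLF6 (4 of these turn against PLC with median centring), and SNU449 lies lowest for KLF11 218486_at.

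Within the family, KLF4 and KLF9 had the largest rise of a single probe set in Hep3B, and the sequences before their transcription starts are shown because they differ in the GC-rich boxes that factors of this family bind. Each is the 250 bases upstream of a start in RefSeq (GRCh38.p14), 5′ to 3′ on the gene's strand, with matches to GGGCGG or its reverse complement CCGCCC in capitals. The KLF4 window is chr9:107489770-107490019 (minus strand) and the KLF9 window chr9:70414658-70414907 (minus strand).
KLF4: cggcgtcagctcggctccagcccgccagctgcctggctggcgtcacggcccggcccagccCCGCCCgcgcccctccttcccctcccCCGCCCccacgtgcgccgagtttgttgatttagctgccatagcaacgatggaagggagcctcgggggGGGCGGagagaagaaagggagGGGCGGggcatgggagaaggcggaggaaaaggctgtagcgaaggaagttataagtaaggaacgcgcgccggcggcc
KLF9: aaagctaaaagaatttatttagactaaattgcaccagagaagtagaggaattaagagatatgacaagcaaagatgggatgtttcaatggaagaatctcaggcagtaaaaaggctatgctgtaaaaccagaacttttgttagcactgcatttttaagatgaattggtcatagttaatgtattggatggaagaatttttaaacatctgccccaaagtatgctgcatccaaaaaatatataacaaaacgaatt
The KLF4 window held 4 matches and a GC content of 69.2%, and the KLF9 window 0 matches and 32.4%. Neither held CACCC or its reverse complement GGGTG, which does not overlap the other motif. GGGCGG was found in 42.6% and CACCC in 54.7% of 35116 windows of the same length, whose median GC content was 58.0%. The RefSeq starts used here gave 13 such windows for 8 of the genes, from 0 to 6 GGGCGG matches each and with more than 1 start for KLF5, KLF7 and KLF11. KLF10 was left out of the sequence work, and the set of starts used held none for KLF3. A match is a description of these letters only, and the arrays do not show which start was used.

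The genes whose brightest probe set ran most like that of KLF4 over the 18 arrays, after subtracting the mean of each line, were IL1RAP, an interleukin-1 receptor subunit, with a Pearson r of 0.97, EPG5, an autophagy gene (0.96), FNDC3B (0.96), POLR1F, an RNA polymerase subunit gene (0.95), and EREG, an EGF-like growth factor gene (0.95). Like KLF4, IL1RAP changed by 1.05, 0.46 and 0.08 and EREG by 0.95, 0.49 and 0.09 in Hep3B, SNU449 and PLC. The genes with the most opposite course were PGAM1 (-0.95), EYA3 (-0.95), POLR2G (-0.95), CAV1 (-0.94) and NDC1 (-0.94), where CAV1, the caveolae gene, changed by -0.98, -0.32 and -0.22. They were taken from 11960 genes brighter than the median, and the arrays share the knockdown, so that these values only describe the data. Within the family, r with KLF4 was highest for KLF3 225133_at (0.86), KLF9 203543_s_at (0.81), KLF5 209211_at (0.77) and KLF3 225140_at (0.75), and lowest for KLF7 204334_at (-0.76).

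Genes around the family were taken from 5 lists, each gene by its brightest probe set. Of 54 measured, 9 passed in Hep3B (16.7%), 0 in SNU449 and 1 in PLC (1.85%), against 14%, 0.142% and 3.58% of 19775 genes, so that the share in Hep3B was near that of all genes. In SNU449 the same limma fit had 2 of the 54 at an unadjusted p under 0.05. Of 7 measured further KLF genes, 0 passed in Hep3B and SNU449 and 1 in PLC, the erythroid factor KLF1, whose signal went from 4.16, 4.13 and 4.14 to 4.57, 4.47 and 4.25, a rise of 0.28 ± 0.07 (limma, adjusted p = 0.0438). The KLF1 signal was dim, the call lay close to the threshold, and it is given without alternative settings. The part of RNA integrity in this PLC rise was not tested. Of 8 SP genes, the nearest relatives of the family, 0 passed in any line. Their median changes were -0.00, 0.02 and 0.06 in Hep3B, SNU449 and PLC, against -0.02, -0.02 and 0.01 over all genes, and those of the further KLF genes -0.06, -0.06 and -0.02.

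Of 10 cofactors of the family, 2 passed in Hep3B and 0 in the other lines. CTBP1, which encodes a partner of KLF3, rose by 0.22 ± 0.06 and CTBP2 fell by 0.18 (SE 0.05), with limma adjusted p-values of 0.0173 and 0.0449. Of 17 upstream factors, 2 rose and 2 fell in Hep3B and 0 passed elsewhere. The TGF-beta receptor gene TGFBR2 rose from 10.99, 10.93 and 10.93 to 11.74, 12.02 and 11.65 on ATAD2 siRNA, by 0.85 ± 0.09 (adjusted p = 4.88e-06). The signal transducer gene SMAD3 fell by 0.45 and the inhibitor gene SMAD7 by 0.53, and FBXW7, whose product marks KLF5 for degradation, rose by 0.34 ± 0.07. Their adjusted p-values were 3.69e-05, 0.000377 and 0.00349. Of 12 measured genes known as targets of KLF proteins, 1 rose and 2 fell in Hep3B and 0 passed elsewhere. CCND1, the cyclin D1 gene, fell by 0.92 (SE 0.07), CDKN1A, which KLF4 and KLF6 are known to activate, fell by 0.33 (SE 0.06), and LGALS3, a gene repressed by KLF3, rose by 0.32 ± 0.08, with adjusted p-values of 1.50e-07, 0.00215 and 0.0175. Median changes in Hep3B were -0.03 for cofactors, -0.07 for upstream factors and -0.08 for targets. In SNU449 they were 0.03, 0.01 and 0.02, and in PLC 0.02, 0.02 and -0.06.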

How the data were processed

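Total RNA from 18 cell line samples was labelled with biotin and hybridized to arrays, per the labels' protocols. The deposited table gives 1 value per probe set and array on a log2 scale, judged from its range of 1.33 to 14.0. The submitters' processing notes name limma without a version, and the sources used here do not give the background correction, normalization or any centring. Deposited log2 medians were 5.36 to 5.42 in Hep3B, 5.55 to 5.62 in SNU449 and 4.14 to 4.21 in PLC. Sorted columns lay within 0.155 of each other in each line but up to 1.51 apart over all arrays, which were therefore quantile normalized together. The platform annotation gave 1 gene for 41097 probe sets, several for 1801 and none for 11777, and 41043 symbols were updated from RefSeq GRCh38.p14 identifiers. Group means of the 6 groups were modelled by limma 3.58.1 in R 4.3.3 (12 residual and 4.05 prior degrees of freedom) with two-sided tests, and the script was tested on simulated data. The smallest two-sided p of an exact permutation test of 3 arrays against 3 is 0.1, and no such test is reported. No 2 arrays were identical, replicate arrays correlated at r = 0.994 to 0.998, and the number of arrays limits the precision. The labels call them biological replicates without saying whether cultures were separate, so the spread between arrays may not be that between cultures. The p-values set a change against that spread, pooled for each probe set over the 6 groups and moderated by the limma prior.

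The members and gene lists were chosen with earlier results of these data known. Named are every probe set of the 10 genes, ATAD2 and genes that check the labels, up to 4 called genes per list with the largest change in any line, and for KLF4 the 5 genes of highest and the 5 of lowest r. Alternatives were the deposited values, quantile normalization within lines, median centring, leaving out the dimmest 30% or 50% of probe sets, 1 probe set per gene, fits of the compared lines alone, an intensity trend with robust prior, array weights, a replicate block, a 5′ to 3′ covariate, and leaving out each array. Leaving out PLC ATAD2 siRNA replicates 1 and 3 together was added after seeing the data.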

Additional observations from a re-analysis of the deposited data

Results flagged for a closer look

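The change after ATAD2 siRNA differed between the 3 lines for 4 probe sets by the limma interaction test. For KLF9 203543_s_at (adjusted p = 0.000479) all Hep3B knockdown arrays were above and all PLC knockdown arrays below the controls of their line. KLF7 204334_at (adjusted p = 0.0173) fell in Hep3B and changed by 0.01 and 0.08 in SNU449 and PLC. KLF3 225140_at (adjusted p = 0.0469) rose in Hep3B and changed by -0.19 in PLC. KLF3 225133_at (adjusted p = 0.0492) changed by 0.54, 0.15 and 0.28 in Hep3B, SNU449 and PLC. Groups of 3 arrays are too small for a test of single outlying values.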

How the results depend on the processing

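The Hep3B count of 5 probe sets was 3 with 1 probe set per gene, and from 3 (without Hep3B control replicate 2 or ATAD2 siRNA replicate 2) to 7 (without ATAD2 siRNA replicate 3) when single arrays were left out; the other 10 settings stayed within 1.5 times. The SNU449 count was 0 in all 29 settings. The PLC count of 2 was 1 without the dimmest 50% of probe sets and with 1 probe set per gene, and 0 with PLC fitted alone, with array weights, with the replicate block and with the 5′ to 3′ covariate. It was 0 without any PLC control array or without PLC ATAD2 siRNA replicate 3, 5 without replicate 2, and 1 without 7 other single arrays (Hep3B control 3, SNU449 control 1, 2 and 3, SNU449 ATAD2 siRNA 1 and 2, PLC ATAD2 siRNA 1). With PLC replicates 1 and 3 left out together, a setting chosen after seeing the data, 1 probe set passed, KLF13 230094_at at 0.38 with the lone array assumed to vary like the other groups, against -0.02 with all arrays. The interaction count of 4 was 2 with 1 probe set per gene and 2 with the replicate block, and 1 (without Hep3B control replicate 2) to 6 (without PLC ATAD2 siRNA replicate 2) with single arrays left out. Same-numbered arrays did not deviate together (r between -0.11 and 0.08 over the 9 pairs, with the own number the best match in 5), so the numbers are not taken as pairs. The block cannot be fitted between lines.

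Control differences with 1 probe set per gene numbered 5 (SNU449 against Hep3B), 6 (PLC against Hep3B) and 6 (SNU449 against PLC) in place of 11, 15 and 13, which follows from testing 10 probe sets in place of 32. Without single arrays they ranged from 11 to 11, 14 to 15 and 12 to 14. The sign turned for 31 of 96 control differences in at least 1 setting, and for 23 of them with an adjusted p under 0.05 before or after. Those values follow on the deposited scale and with quantile normalization within lines, with the main value in parentheses. For PLC minus Hep3B they were KLF2 219371_s_at -0.57 and -0.57 (0.19), KLF3 222913_at -0.22 and -0.22 (0.64), KLF9 203542_s_at -0.039 and -0.033 (0.80), KLF9 228474_s_at -0.94 and -0.90 (0.33), KLF9 203541_s_at -0.31 and -0.28 (0.90), KLF9 230636_s_at -0.58 and -0.55 (0.53), KLF11 1553137_s_at -0.49 and -0.46 (0.63), KLF13 219878_s_at -0.49 and -0.51 (0.23) and KLF13 1564463_at -1.15 and -1.12 (0.12). For SNU449 minus PLC they were KLF3 219657_s_at 0.079 and 0.13 (-0.27), KLF3 222913_at 0.49 and 0.48 (-0.57), KLF9 203542_s_at 0.49 and 0.49 (-0.49), KLF9 228474_s_at 0.98 and 0.95 (-0.47), KLF9 203541_s_at 0.40 and 0.36 (-0.98), KLF9 230636_s_at 0.50 and 0.46 (-0.73), KLF11 1553137_s_at 0.23 and 0.19 (-0.96) and KLF13 1564463_at 0.95 and 0.91 (-0.49). With median centring they were, for PLC minus Hep3B, KLF6 1555832_s_at 0.47 (-0.93), KLF6 224606_at 0.42 (-0.99), KLF6 208961_s_at 0.11 (-1.24) and KLF6 208960_s_at 0.15 (-1.11), and for SNU449 minus PLC KLF2 219371_s_at -0.012 (0.66) and KLF3 225133_at -1.13 (0.35). No detection calls were used, so whether the dim probe sets lie above background was not tested.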
